A study of Mus musculus with 16 samples.

Results

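The 10 circadian clock genes Clock, Nr1d1, Nr1d2, Dbp, Tef, Per1, Per2, Per3, Cry1 and Cry2 were followed in dorsal skin biopsies of C57/B6 females aged 8.5 weeks at the first biopsy. The sample titles write the strain as C57/B7 and the other label fields as C57/B6, which is used here. They are 10 of the 12087 genes tested. A probe set (a group of short probes against one transcript) belonged to a gene when its annotation gave that symbol and no other. This gave 24 probe sets, of which 20 passed the filter on low values, and every gene kept at least 1. For each gene the probe set with the highest mean over the 16 arrays was used, and the others served as a check. The values are log2 expression after GCRMA, so a difference of 1 is a doubling. No genetic change is named for any group. Day-0 skin was taken before treatment from 9 mice (n = 9). The day-5 groups had received daily topical DMSO (the vehicle; mice 2 and 3, n = 2), ruxolitinib (mice 4 and 6, n = 2) or tofacitinib (mice 7, 8 and 9, n = 3). Both drugs inhibit Janus kinases. The 7 day-5 mice had each been biopsied at day 0, so a day-5 array is also the second biopsy of its mouse, taken at sacrifice. The labels give no hour of biopsy. Day, treatment period, second biopsy and any difference in hour therefore cannot be told apart in the day-5 against day-0 comparisons.

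The mammalian clock is a feedback loop present in most cells, skin included. CLOCK, or its relative NPAS2, pairs with BMAL1 (gene Arntl) and switches on the Per and Cry genes, whose proteins then inhibit that pair. The same pair drives Nr1d1 and Nr1d2, which repress Arntl, and Dbp, Tef and Hlf, whose products act at D-box sites where NFIL3 represses. In mouse tissues Nr1d1 and Dbp RNA usually peaks earlier in the daily cycle than Per2 RNA, and Cry1 later still, while Arntl and Npas2 run opposite to Dbp.

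The starts of 3 genes illustrate these sites. Cry1 and Nr1d1 are shown because they had large differences in opposite directions, and Per3 because it was the one gene with D-boxes among the 9 of the 10 whose windows were searched. Each line holds the 250 bases before a RefSeq start in GRCm38.p6, read 5′ to 3′ along the gene, all 3 on the minus strand. For Per3 this is not the outermost start, since the RefSeq span of the gene reaches 151044707, within its window. They lie at chr10:85185055-85185304 for Cry1, chr11:98775378-98775627 for Nr1d1 and chr4:151044666-151044915 for Per3. Capitals mark matches on either strand to the E-box (CACGTG), the E-prime box (CACGTT, here as its complement AACGTG) and the D-box (TTANGTAA). They also mark a loose pattern for the RORE, the site of the NR1D proteins (TNGGTCA with any base at N, here as TGACCAA). The matches in these genes hold T at N, so they are not taken as sites that NR1D proteins bind.
Cry1: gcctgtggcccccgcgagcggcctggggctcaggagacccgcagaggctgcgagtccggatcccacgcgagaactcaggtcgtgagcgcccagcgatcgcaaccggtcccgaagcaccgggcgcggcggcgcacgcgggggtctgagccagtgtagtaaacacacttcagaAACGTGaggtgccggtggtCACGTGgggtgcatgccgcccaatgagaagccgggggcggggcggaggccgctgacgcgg
Nr1d1: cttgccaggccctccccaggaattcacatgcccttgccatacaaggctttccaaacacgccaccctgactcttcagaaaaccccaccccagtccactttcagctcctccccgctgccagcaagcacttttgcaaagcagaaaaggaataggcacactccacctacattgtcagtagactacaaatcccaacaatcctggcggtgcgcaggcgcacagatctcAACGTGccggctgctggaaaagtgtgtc
Per3: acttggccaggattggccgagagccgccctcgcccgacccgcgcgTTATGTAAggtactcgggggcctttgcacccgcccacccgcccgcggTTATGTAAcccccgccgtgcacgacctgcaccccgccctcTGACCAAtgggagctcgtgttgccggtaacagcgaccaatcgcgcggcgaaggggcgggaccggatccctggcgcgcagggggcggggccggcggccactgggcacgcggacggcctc
Counted from the start, Cry1 held an E-box at -60 and an E-prime box at -79, and Nr1d1 an E-prime box at -28. Per3, counted from the start that its window precedes, held D-boxes at -205 and -158 and a match to the loose RORE pattern at -118. The window of Per2 was not analysed here. Among the 9 genes searched, 3 had an E-box (Cry1, Per1, Tef), 3 an E-prime box (Cry1, Cry2, Nr1d1) and 1 a D-box. The loose RORE pattern was in 3 (Cry2, Per3, Tef). Among all 32851 windows of that length, 6.02% held the E-box, 3.85% the E-prime box, 2.06% the D-box and 9.19% the loose RORE pattern. These shares are per window, whereas the counts above are genes with a match in any window. Clock, Per1 and Tef had more than 1 window each, so the 2 are not directly comparable. The cyclic AMP response element (TGACGTCA), in 1.55% of all windows, was in none of the 9. Such a match is a string of letters and was not tested as a binding site.

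Over the whole series, array medians lay between 3.75 and 3.94, and array pairs correlated at 0.978 to 0.996 within day 0, 0.984 to 0.993 within day 5 and 0.946 to 0.983 between the days. With 2 or 3 arrays in a day-5 group, the number of arrays limits the precision. The keratinocyte markers, at a list mean of 12.4 to 12.7 at day 0, were present as the label skin implies. At day 5, over the mean of the 3 groups, 10 of 12 keratinocyte and all 4 tested T cell markers were lower (limma, adjusted p under 0.05). By the same test 7 of 10 fibroblast, 13 of 14 skeletal muscle, 5 of 6 adipocyte, 8 of 8 endothelial and 2 of 6 macrophage markers were higher. Across all tested genes 29.7% were higher and 34.8% lower. In bulk tissue, fewer cells of a type and less RNA per cell cannot be told apart, and the part of tissue makeup in the clock gene differences was not tested. One label field of the day-5 array of mouse 7 says ruxolitinib; the remaining fields say tofacitinib, and it was grouped by them.

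Against day 0, the day-5 arrays had more Per2 and Cry1 RNA and less Nr1d1 and Dbp RNA, in every one of the 7 mice. Over the mean of the 3 day-5 groups, 6 of the 10 clock genes passed the test (limma with mouse as a random block, Benjamini-Hochberg over all genes). Per2, Cry1, Cry2 and Nr1d2 were higher, and Nr1d1 and Dbp lower. Across all 12087 genes 64.5% passed, 29.7% higher and 34.8% lower, so the count of 6 in 10 is near the background. The count moved with the probe sets used: with the mean of a gene's kept probe sets 9 of 10 passed, 4 higher and 5 lower, and 7868 of all genes did. The day-5 and day-0 arrays did not overlap for 3 of the 10, Per2, Cry1 and Nr1d1, where 22.9% of all genes had day-5 arrays entirely above (8.48%) or below (14.4%) day 0.

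**Figure D1:**
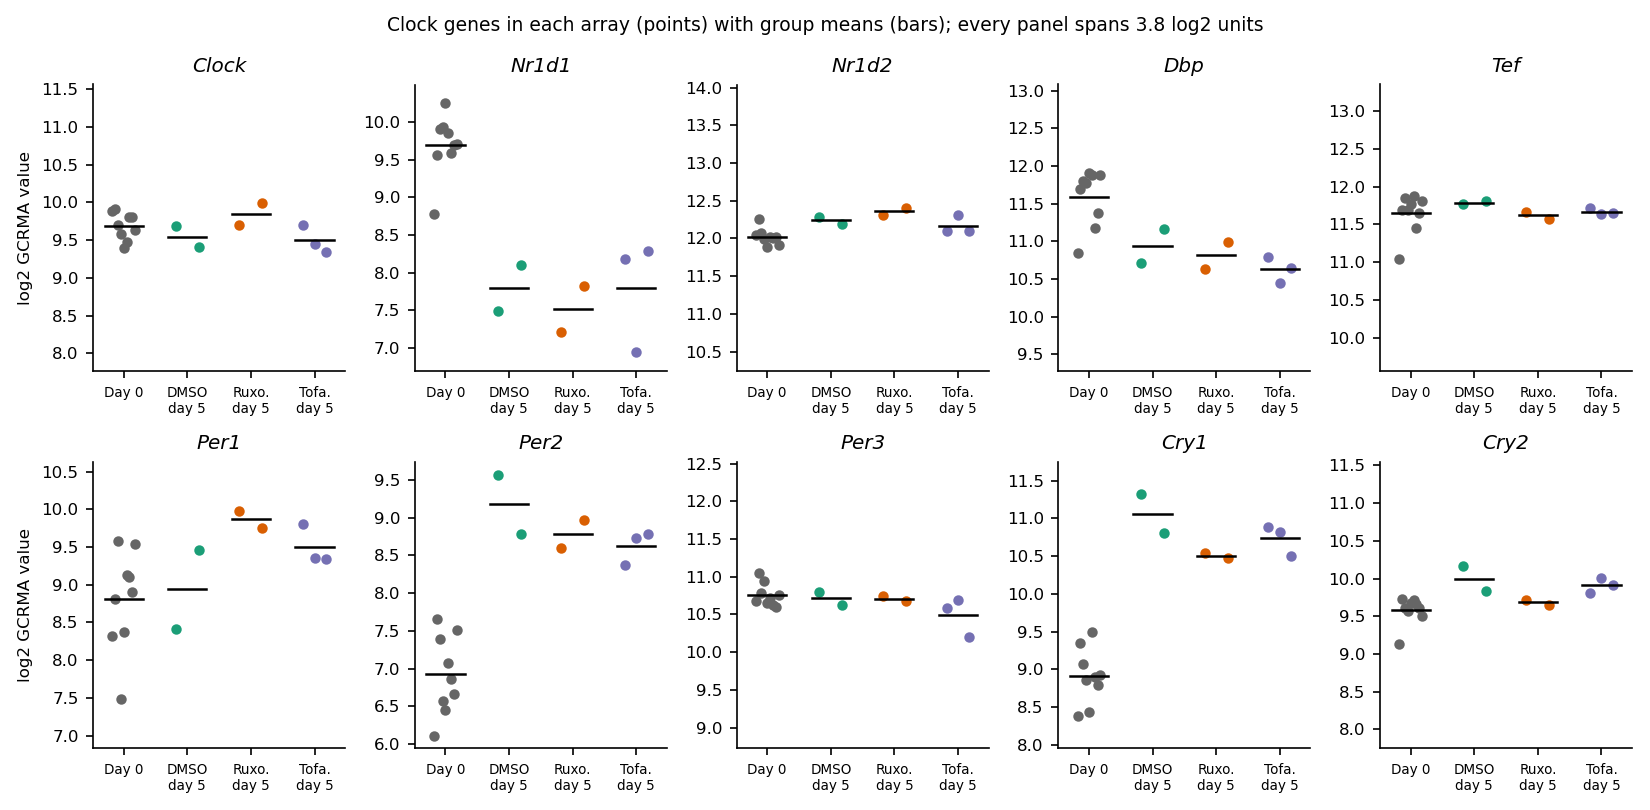
Log2 GCRMA value of the 10 clock genes in each of the 16 arrays, by group; points are arrays, bars are group means, and every panel spans the same range. Per2 and Cry1 lie higher and Nr1d1 lower in all 7 day-5 arrays than in any of the 9 day-0 arrays.

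Per2 encodes a period protein, one of the inhibitors of the loop. At day 0 its log2 value ran from 6.11 through a median of 6.87 to 7.65. At day 5 it was 9.57 and 8.79 with vehicle, 8.60 and 8.96 with ruxolitinib, and 8.37, 8.73 and 8.78 with tofacitinib. Every day-5 array was above every day-0 array. The difference was 1.92 ± 0.21 on the log2 scale (SE), or 3.79-fold, at an adjusted p of 3.01e-06 by limma. A second, dim Per2 probe set (1457350_at) was higher by a smaller 0.63. It passed the filter only through day-5 arrays, since its day-0 values reached only 3.98. It is therefore no separate support for the rise.

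Cry1 encodes a cryptochrome, the strongest repressor of the pair of CLOCK and BMAL1. Its day-0 values ran from 8.38 through 8.90 to 9.49. At day 5 they were 11.33 and 10.80 with vehicle, 10.54 and 10.47 with ruxolitinib, and 10.88, 10.82 and 10.50 with tofacitinib. The 2 sets of arrays did not overlap. Cry1 was higher by 1.84 ± 0.15, or 3.58-fold (limma, adjusted p = 2.12e-07).

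Nr1d1 encodes REV-ERB alpha, a nuclear receptor that represses Arntl. At day 0 it ran from 8.77 through 9.71 to 10.25. At day 5 it was 7.50 and 8.10 with vehicle, 7.21 and 7.82 with ruxolitinib, and 8.18, 6.95 and 8.28 with tofacitinib. All day-5 arrays were below all day-0 arrays, with the day-0 array of mouse 1 the nearest. Nr1d1 fell by 1.999 ± 0.22 (limma, adjusted p = 2.63e-06).

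Dbp encodes a D-box activator and is a direct output of the clock. Its day-0 values ran from 10.85 through 11.77 to 11.91, and its day-5 values were 10.72 and 11.16 with vehicle, 10.63 and 10.99 with ruxolitinib, and 10.79, 10.45 and 10.64 with tofacitinib. Here the groups overlapped, since the day-0 array of mouse 1 (10.85) was under 2 of the day-5 arrays. Dbp fell by 0.81 ± 0.16 (limma, adjusted p = 0.000417), and its other probe set (1418174_at) by 0.96 (limma, adjusted p = 0.000844).

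**Figure D2:**
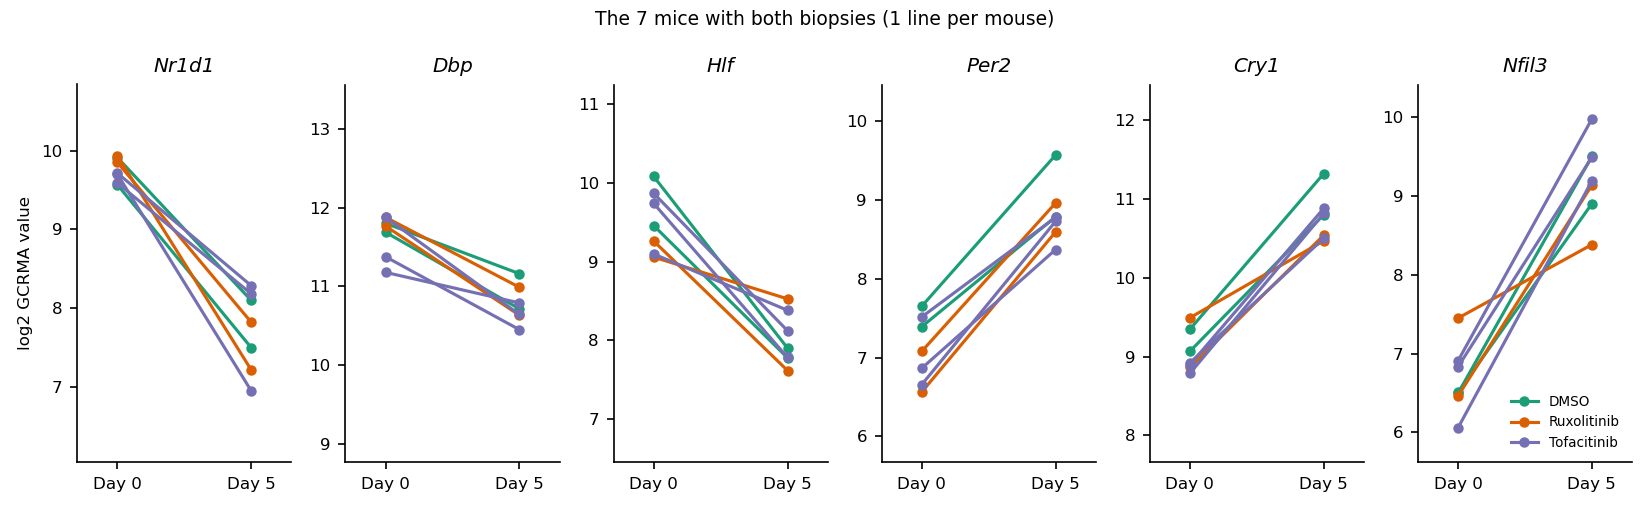
Log2 GCRMA value at day 0 and day 5 for the 7 mice with both biopsies, 1 line per mouse, coloured by treatment, every panel spanning the same range. Nr1d1, Dbp and Hlf fall and Per2, Cry1 and Nfil3 rise in all 7 mice.

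Within mice, the day-5 minus day-0 difference of Nr1d1 ran from -2.75 (mouse 8) to -1.41 (mouse 7), and that of Dbp from -1.23 (mouse 9) to -0.39 (mouse 7). For Per2 it ran from 1.26 (mouse 9) to 2.07 (mouse 8), and for Cry1 from 0.98 (mouse 6) to 2.03 (mouse 8). The sign was the same in 7 of 7 mice for each of these genes.

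Cry2 and Nr1d2, a second cryptochrome and the REV-ERB beta receptor, were higher by small amounts. Cry2 differed by 0.28 ± 0.09 (limma, adjusted p = 0.0147) and Nr1d2 by 0.23 ± 0.07 (adjusted p = 0.00988). With each mouse as its own fixed block, neither passed: Cry2 was at 0.23 (adjusted p = 0.0754) and Nr1d2 at 0.20 (adjusted p = 0.0834). Cry2 also missed the threshold without the vehicle array of mouse 2 (0.23, adjusted p = 0.0698). Nr1d2 was higher in 7 of 7 mice and Cry2 in 6 of 7. A dim Nr1d2 probe set (1416959_at) differed more, at 1.01, rising from 2.72 to 3.39 at day 0 to 3.49 to 4.71 at day 5. It passed the filter only through day-5 arrays, since no day-0 value was above 4. It is therefore no separate support for a rise of Nr1d2.

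Per1, a period gene that also responds to glucocorticoids and cyclic AMP, varied most between untreated mice. Its day-0 values ran from 7.48 through 8.90 to 9.58, an SD of 0.66 that was larger than in 92.0% of all tested genes. Its day-5 values were 8.42 and 9.46 with vehicle, 9.98 and 9.75 with ruxolitinib, and 9.81, 9.36 and 9.34 with tofacitinib. Both ruxolitinib arrays and the tofacitinib array of mouse 7 lay above the day-0 range, and the other 4 day-5 arrays lay within it. Per1 differed by 0.62 ± 0.26 and did not pass (limma, adjusted p = 0.0505), and without the vehicle array of mouse 2 it did (0.81, adjusted p = 0.0319). It was higher at day 5 in 4 mice and lower in 3, by up to 2.50 in mouse 4, which had the lowest day-0 value.

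Clock, Per3 and Tef depended on the probe set. The probe sets with the highest signal differed by -0.06 ± 0.10 for Clock, -0.13 ± 0.09 for Per3 and 0.03 ± 0.11 for Tef, and none passed (adjusted p = 0.597, 0.232 and 0.797). The sign for Tef flipped under quantile normalization (-0.0075), so no direction is given for it. Other probe sets of these genes were lower. For Clock, 1418660_at was at -1.07 (adjusted p = 0.000449) and 1435775_at at -0.62 (adjusted p = 0.00176), while 1439314_at, at -0.40, did not pass (adjusted p = 0.225). For Per3 the probe sets 1441445_at, 1442243_at and 1458176_at were at -1.15, -0.82 and -0.86, with adjusted p of 0.00015, 0.000234 and 0.00238. The Tef probe set 1438033_at was at -0.93 (adjusted p = 0.000202), from 7.28 to 8.45 at day 0 to 6.63 to 7.16 at day 5, without overlap. Which transcripts each probe set detects was not tested.

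**Figure D3:**
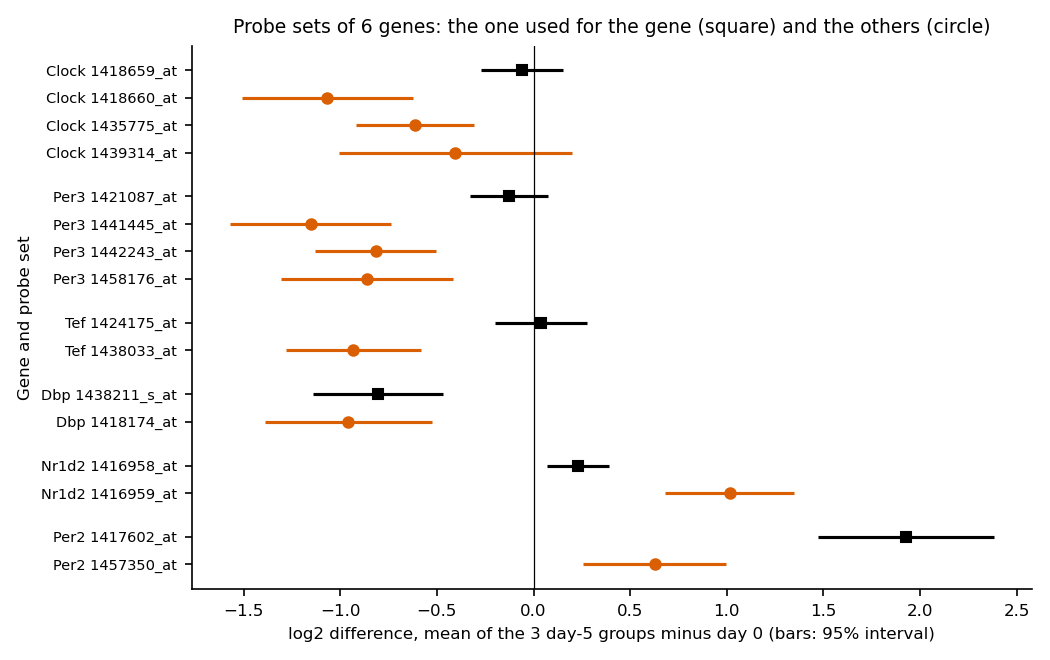
Log2 difference of the mean of the 3 day-5 groups from day 0 for each kept probe set of 6 clock genes, with 95% intervals; squares are the probe sets used for the gene and circles the others. For Clock, Per3 and Tef the squares lie near 0 while 6 of the 7 circles of these genes lie below it with intervals that do not reach 0.

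Each treatment group was also set against the same 9 day-0 arrays, which all 3 comparisons share. In each, 5 of the 10 clock genes passed, where 51.1% of all genes passed with vehicle, 34.0% with ruxolitinib and 50.1% with tofacitinib. Of the 5, 3 were higher and 2 lower in each, where the shares of all genes were 22.2% higher and 28.9% lower with vehicle, 12.5% and 21.4% with ruxolitinib, and 22.7% and 27.4% with tofacitinib. Per2 and Cry1 were higher and Nr1d1 and Dbp lower in all 3. In the order vehicle, ruxolitinib, tofacitinib, Per2 differed by 2.20 ± 0.33, 1.87 ± 0.33 and 1.70 ± 0.28 (adjusted p = 0.000127, 0.000746 and 0.000279). Cry1 differed by 2.12 ± 0.24, 1.57 ± 0.24 and 1.83 ± 0.20 in the same order (adjusted p = 1.25e-05, 0.000257 and 9.85e-06). The pair rose with DMSO alone as well as with each inhibitor.

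Nr1d1, again in that order, was at -1.91 ± 0.34, -2.20 ± 0.34 and -1.89 ± 0.29 (adjusted p = 0.000478, 0.00028 and 0.000148). Dbp was at -0.67 ± 0.24, -0.80 ± 0.24 and -0.95 ± 0.21 (adjusted p = 0.0335, 0.0204 and 0.00192). Its call with vehicle was lost without mouse 2 (-0.43, adjusted p = 0.351) or mouse 3 (-0.87, adjusted p = 0.0605). With ruxolitinib it was lost without mouse 4 (-0.65, adjusted p = 0.191) or mouse 6 (-0.98, adjusted p = 0.0594), and when only the groups compared were fitted (adjusted p = 0.0528). The other Dbp probe set (1418174_at) did not pass with vehicle (-0.64, limma, adjusted p = 0.105). It passed as lower with ruxolitinib and tofacitinib (limma, adjusted p = 0.0098 and 0.00578). The fifth gene was Cry2 with vehicle (0.41, adjusted p = 0.0269) and tofacitinib (0.33, adjusted p = 0.0346), and Nr1d2 with ruxolitinib (0.33, adjusted p = 0.0281). With the fixed mouse block those 3 calls were lost, at adjusted p of 0.182, 0.111 and 0.196.

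**Figure D4:**
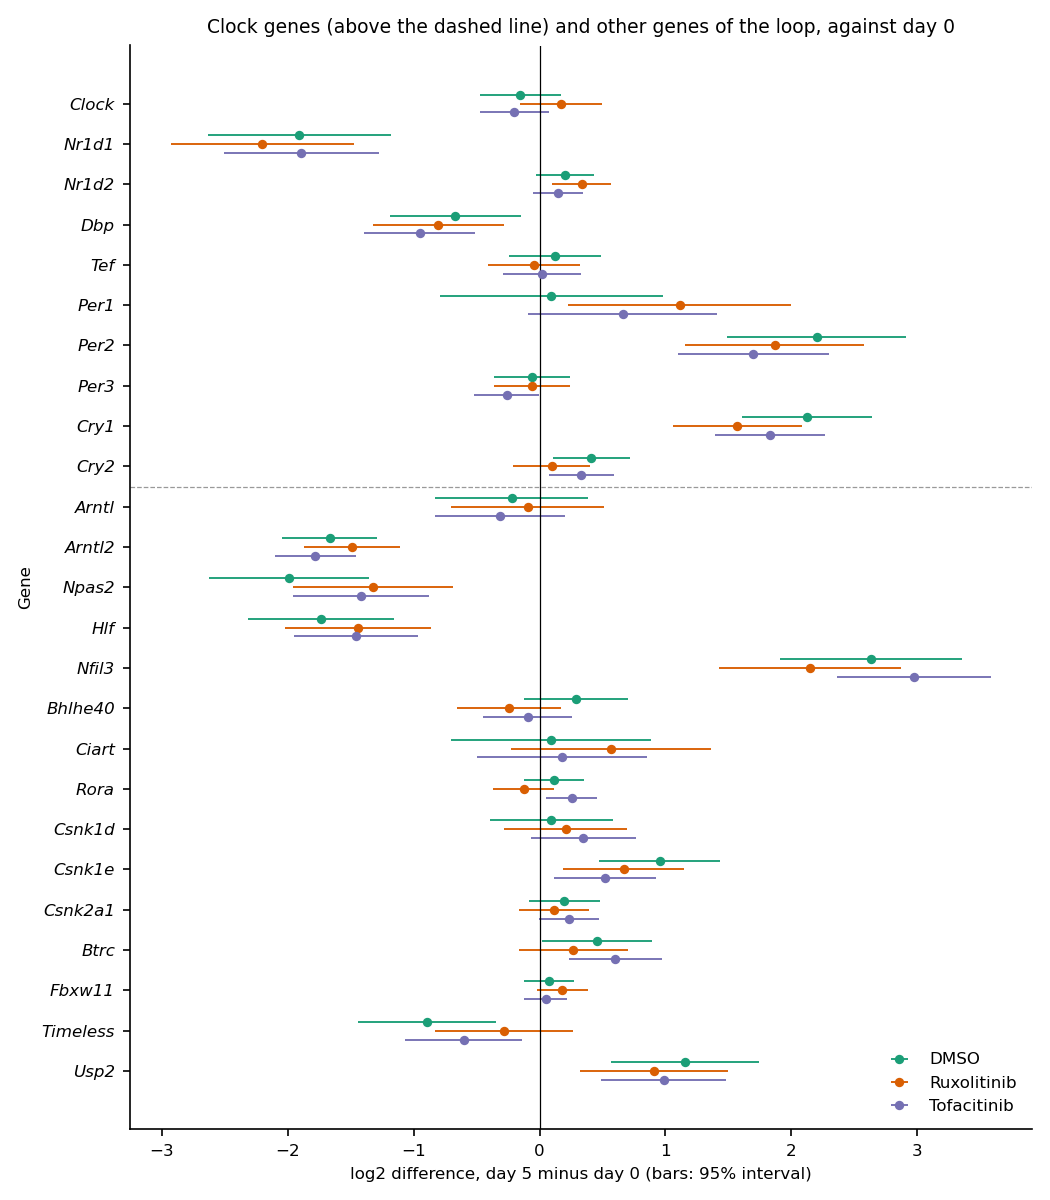
Log2 difference from day 0 in the vehicle, ruxolitinib and tofacitinib groups with 95% intervals, for the 10 clock genes above the dashed line and 15 other genes of the loop under it. Within each of Per2, Cry1, Nfil3, Nr1d1, Arntl2, Npas2 and Hlf, the intervals of the 3 groups lie on 1 side of 0.

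Between the day-5 groups, no clock gene passed in any of the 3 comparisons (limma, 0 of 10 each, with 0 at an unadjusted p under 0.05), and 0.521%, 0.165% and 0.0248% of all genes passed for ruxolitinib against vehicle, tofacitinib against vehicle and tofacitinib against ruxolitinib. For ruxolitinib against vehicle the differences ran from -0.55 (Cry1) to 1.02 (Per1), within 95% bounds of -1.26 to 2.17. For tofacitinib against vehicle they ran from -0.50 (Per2) to 0.57 (Per1), within -1.35 to 1.62. For tofacitinib against ruxolitinib they ran from -0.45 (Per1) to 0.31 (Nr1d1), within -1.50 to 1.17. The intervals of all 10 genes held 0 in each comparison, which does not show that the groups are alike. The dose was not given in the labels, so the 2 compounds cannot be compared at matched doses.

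Other genes of the loop were taken from a list of 20, of which 15 were tested. Over the mean of the 3 day-5 groups, 4 were higher, 4 lower and 7 did not pass, against 29.7% higher and 34.8% lower over all genes. Their median difference was 0.10, beside 0.13 over the 10 clock genes and -0.03 over all genes. Nfil3, the repressor at D-boxes, was higher by 2.58 ± 0.22, or 5.99-fold (adjusted p = 2.13e-07), from 5.76 to 7.45 at day 0 to 8.38 to 9.98 at day 5. Hlf, a D-box activator like Dbp, fell by 1.54 ± 0.17 (adjusted p = 3.44e-06). The repressor and these 2 activators, Dbp and Hlf, thus moved in opposite directions in each of the 7 mice. Tef, the third D-box activator named above, did not share this on its brightest probe set, being higher in 2 mice and lower in 5. Its probe set 1438033_at was at -0.93.

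The partners of the activating pair differed among themselves. Npas2 fell by 1.58 ± 0.19 (limma, adjusted p = 6.59e-06) and Arntl2, a paralog of Arntl, by 1.64 ± 0.11 (adjusted p = 4.04e-08), each without overlap between the days. Arntl itself was at -0.21 ± 0.18 and did not pass (adjusted p = 0.325). Its day-0 values ran from 5.87 to 7.31 and its day-5 values from 5.66 to 6.39.

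Usp2, a clock-controlled ubiquitin protease, was higher by 1.01 ± 0.18 (adjusted p = 0.000171), with all day-5 arrays above day 0. Csnk1e, a kinase that marks PER proteins, was higher by 0.72 ± 0.14 (adjusted p = 0.000567), and Btrc, a subunit of the ligase that degrades them, by 0.44 ± 0.13 (adjusted p = 0.00783). Timeless fell by 0.59 ± 0.16 (adjusted p = 0.00555). Bhlhe40 (-0.02), Ciart (0.28), Rora (0.08), Csnk1d (0.22), Csnk2a1 (0.18) and Fbxw11 (0.10) did not pass.

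Genes that respond to glucocorticoids or to temperature were read beside the clock genes, because both signals act on Per genes in skin and other tissues. Of 12 glucocorticoid-responsive genes, Per1 among them, 9 were higher and 0 lower, with a median difference of 0.60, where 29.7% of all genes were higher and 34.8% lower. Klf15 was higher by 2.01 ± 0.31 (adjusted p = 6.99e-05), Cebpd by 1.48 ± 0.22 (adjusted p = 5.56e-05), Zbtb16 by 0.61 ± 0.10 (adjusted p = 0.00012) and Klf9 by 0.53 ± 0.10 (adjusted p = 0.000482). Each of these encodes a transcription factor. Of 7 temperature-responsive genes, 1 was higher and 2 lower, against the same shares of all genes. Cirbp, a cold-induced RNA-binding protein gene, fell by 0.88 ± 0.13 (limma, adjusted p = 4e-05), and Dnajb1, a chaperone gene, fell by 0.43 ± 0.10 (adjusted p = 0.00194). Hsp90aa1 was higher by 0.26 ± 0.10 (adjusted p = 0.0267), and Hspa1a, at 0.32, did not pass (adjusted p = 0.208). The part of either signal in the clock gene differences was not tested.

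Among the untreated mice, mouse 1 stood apart. Its day-0 array was the lowest of 9 for 6 of the 10 clock genes, with Per2 at 6.11, Cry1 at 8.38, Cry2 at 9.13, Nr1d1 at 8.77, Dbp at 10.85 and Tef at 11.04. Of the 15 other clock genes it was the lowest for 8 (Nfil3, Bhlhe40, Ciart, Csnk1d, Csnk2a1, Btrc, Timeless and Usp2) and the highest for 3, Arntl (7.31, the others 5.87 to 6.61), Arntl2 and Npas2. Over all 12087 genes this array was the lowest for 23.2% and the highest for 18.4%, the largest share on either side among the 9 arrays. Low Nr1d1 and Dbp were also the direction of the day-5 arrays, whereas low Per2, Cry1 and Nfil3 and high Npas2 and Arntl2 were the opposite direction. In the same array the difference between the 3′ and 5′ Gapdh control probe sets, a measure of RNA integrity, was 1.473. The other day-0 arrays had 0.825 to 1.062 and the day-5 arrays 0.779 to 0.985. On the same measure for actin this array was at 2.095, close to the 1.648 to 2.03 of the other day-0 arrays. Its adipocyte list mean was 5.02 (the others 7.24 to 10.14) and its fibroblast list mean 6.44 (7.51 to 8.60). The part of RNA integrity and tissue makeup in its clock values was not tested. Mouse 1 gave no day-5 array. Without it, 6 of the 10 clock genes and 7666 of all 12087 genes passed over the mean of the 3 day-5 groups. Nr1d1 was then at -2.10, Dbp at -0.89, Per2 at 1.83 and Cry1 at 1.78.

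**Figure D5:**
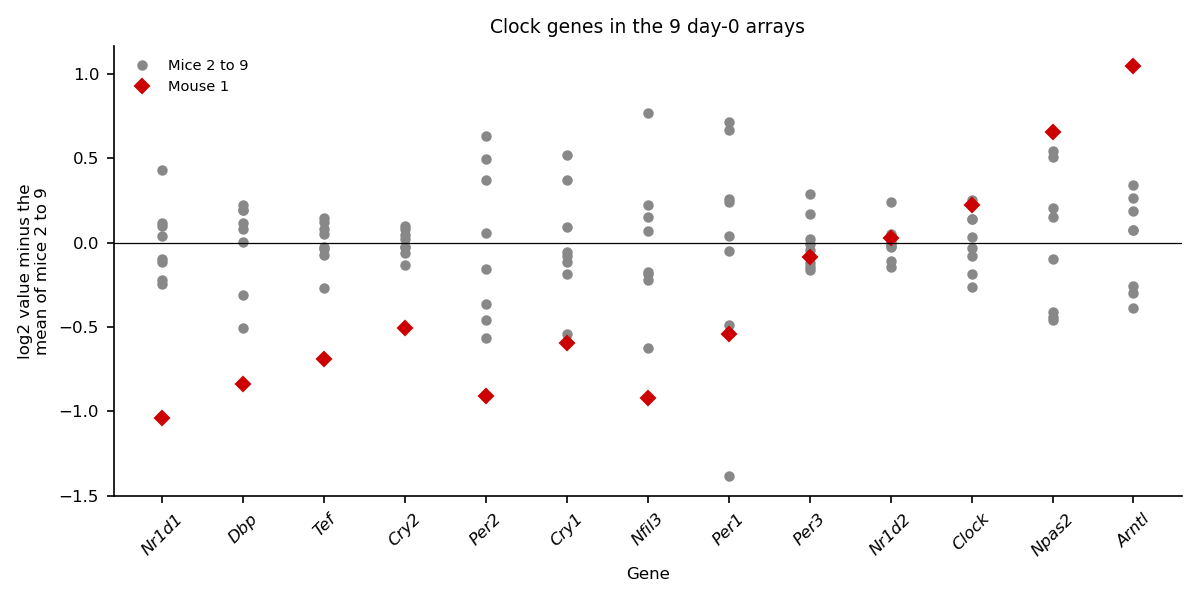
Log2 value in each of the 9 day-0 arrays minus the mean of mice 2 to 9, for the 10 clock genes with Nfil3, Npas2 and Arntl; diamonds are mouse 1 and circles the other 8 mice. Mouse 1 is lowest for Nr1d1, Dbp, Tef, Cry2, Per2, Cry1 and Nfil3 and highest for Npas2 and Arntl.

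The spread between day-0 mice was wide for some clock genes and narrow for others. The SD was 0.53 for Per2, 0.40 for Nr1d1 and 0.37 for both Dbp and Cry1, where the median over all genes was 0.256. It was 0.18 for Clock, 0.15 for Per3 and 0.11 for Nr1d2. Without mouse 1 the SD of Nr1d1 was 0.22, which moved it from the 77.6th to the 44.8th percentile of all genes, and that of Dbp was 0.27.

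Whether day-0 mice varied together was described with Dbp as the reference, in a family of 11 genes (exact permutation tests over 9 arrays, 2-sided, Benjamini-Hochberg). Tef rose with Dbp (Pearson r = 0.943, exact p = 0.000163, adjusted p = 0.00179; Spearman rho = 0.867, exact p = 0.00451, adjusted p = 0.0455). Nr1d1 did so by Pearson (r = 0.85, exact p = 0.0033, adjusted p = 0.0181), with rho = 0.80 (exact p = 0.0138, adjusted p = 0.0507). Arntl ran opposite (r = -0.808, exact p = 0.00968, adjusted p = 0.0355; rho = -0.667, exact p = 0.0589, adjusted p = 0.162). Clock passed only by Spearman (rho = -0.833, exact p = 0.00827, adjusted p = 0.0455; r = -0.708, exact p = 0.0321, adjusted p = 0.0707). The other 7 genes passed by neither, Per2 (r = 0.546) and Cry1 (r = 0.47) among them. How many of all tested genes correlate as strongly with Dbp over these 9 arrays was not computed. These calls are therefore not set against a background and do not show that clock genes vary together more than others.

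Without mice 1 and 7, the arrays farthest from the median of Dbp, r was 0.741 for Tef, 0.51 for Nr1d1, -0.517 for Arntl and -0.688 for Clock, and none passed over 7 arrays (exact permutation, adjusted p = 0.282, 0.662, 0.662 and 0.426). Without mouse 1 alone Tef passed (r = 0.90, exact permutation, adjusted p = 0.0161), and Nr1d1 (0.611) and Arntl (-0.526) did not. The calls of Nr1d1 and Arntl with Dbp were thus lost without mouse 1, over 8 arrays, and the change in r was not tested. The relation of Tef with Dbp rests on its brightest probe set, since with the mean of its probe sets r was -0.003.

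Among all tested genes other than the 10, the 5 genes whose deviations from their group means were most like those of Dbp over the 16 arrays were Sphk2 (r = 0.905), Pomp (0.899), Smim11 (0.868), Pdf (0.858) and Ttc4 (0.852), out of 12077 genes compared. These are descriptions over arrays that share mice, with no test.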

How the data were processed

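RNA of flash-frozen skin was amplified and hybridised to Affymetrix mouse arrays, per the labels' protocols. The authors deposited 1 log2 value per probe set and array, computed with GCRMA per the submitters' processing notes. No source used here gives its version or says which arrays were normalized jointly. The table holds 45101 probe sets, of which 34958 had 1 gene symbol in the platform annotation, 932 had several and 9211 were not listed. Probe sets with a log2 value above 4 in at least 2 arrays were kept (20992), and the brightest stood for its gene, which left 12087 genes. All 10 clock genes passed.

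Groups came from the labels alone. Means of the 4 groups were fitted with limma 3.58.1 in R 4.3.3, with mouse as a random block (consensus correlation 0.0982), and 7 comparisons were adjusted by Benjamini-Hochberg over all genes at 0.05. The labels tie a day-0 and a day-5 array to each of 7 mice. Deviations from the group means correlated between -0.183 and 0.178 within these pairs, over 0.1 in 2 of 7, and 1 of 7 arrays correlated best with its own mouse. Nothing says how the mice were housed or whether arrays were run in batches. The fit was tested on simulated data. The clock genes, the other lists and the tests were chosen with earlier results of these data known. Named were the 10 clock genes, every tested gene of the other clock list, the 4 genes of smallest p in the glucocorticoid and temperature lists, and the 5 most like Dbp. Alternatives were the mouse block as fixed or left out, the mean of probe sets, other filters, quantile normalization, fewer arrays and a threshold of 0.01. Leaving out mouse 1, single probe sets and the correlation without mouse 1 were chosen after seeing the data. Promoter windows are RefSeq's, GRCm38.p6.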

Additional observations from a re-analysis of the deposited data

Results flagged for a closer look

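The day-0 values of 3 genes in 1 array lay far from the other 8 mice, all of them the lowest and all from mouse 1: Cry2 at 9.13, Nr1d1 at 8.77 and Tef at 11.04. The gap to the next array was 0.615, 0.539 and 0.501 of the whole range, above Dixon's 95% critical value of 0.493 for 9 arrays. Such gaps were looked for only in the 10 clock genes, and chance gives about 1 in 20 groups. Their share over all genes was not computed. Over all genes this array was the lowest of the 9 day-0 arrays for 23.2% and the highest for 18.4%. The 3 values come from 1 array, so they are not independent.

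The change from day 0 ran in opposite directions in every mouse of 2 treatment groups for 2 genes. Such patterns were looked for only in the clock genes, and their share over all genes was not computed. With so few mice a group, they can also arise by chance. Clock was higher at day 5 in both ruxolitinib mice and lower in every vehicle and tofacitinib mouse, on the probe set used for the gene. On 2 other Clock probe sets both ruxolitinib mice were lower at day 5, and these passed as lower with ruxolitinib (1418660_at: -1.002, limma, adjusted p = 0.0276; 1435775_at: -0.68, adjusted p = 0.0298), so the opposite direction does not hold across probe sets. With the probe set used, the differences of the changes were 0.57 for ruxolitinib against vehicle and -0.56 for tofacitinib against ruxolitinib, and neither passed with the mouse as a fixed block (limma, adjusted p = 0.331 and 0.402). Per1 was higher in both ruxolitinib mice and lower in both vehicle mice, a difference of 1.82 (limma, adjusted p = 0.269).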

How the results depend on the processing

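Per2, Cry1 and Nr1d1 kept their direction and their call against day 0, in each group and over the mean of the 3, under every alternative run, except that the dim Per2 probe set 1457350_at did not pass with vehicle (0.62, adjusted p = 0.0736) or ruxolitinib (0.48, adjusted p = 0.183). That probe set had itself passed the filter only through day-5 arrays. With 2 or 3 arrays a group, Dbp within a group, Cry2, Nr1d2 and Per1 depended on single arrays, and the cause of each change below was not tested. Of the recomputed values, 1129 single-gene values and 209 counts or correlations kept their direction and side of the threshold (counts within 1.5 times). Most reversals below are of small differences that passed in neither setting.

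With mouse as a fixed replicate block, Per2, Cry1, Nr1d1 and Dbp remained called in all comparisons with day 0, and the lost calls of Cry2 and Nr1d2 are given with those genes. The paired fit called 3701 genes of all tested for vehicle (6178 with the random block), 1324 for ruxolitinib (4104) and 0 in each comparison between day-5 groups. Signs turned under this block for Tef over the mean of the groups (-0.04), Per1 with vehicle (-0.26), Per2 for ruxolitinib against vehicle (0.30), Dbp for tofacitinib against ruxolitinib (0.16), and for tofacitinib against vehicle Clock (0.0083), Per3 (0.036), Cry1 (0.011), Nr1d2 (0.12) and Tef (0.020). Without a replicate block, and with only the groups compared, Per3 for ruxolitinib against vehicle was at -0.0062, and it was at -0.0008 with no filter.

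With the mean of a gene's probe sets, 9 clock genes passed over the mean of the 3 groups in place of 6. In place of 5 each, 8 passed with vehicle, 7 with ruxolitinib and 9 with tofacitinib. Of all genes, 7868 passed over the mean of the groups in place of 7800. In the same order of groups, 6348, 4431 and 6141 of all genes passed, in place of 6178, 4104 and 6055. Over the mean of the groups, 4 clock genes passed with the fixed mouse block and 7 with a filter at 6. Of all genes tested in each setting, 6807 and 6655 did. With the mean of probe sets, Tef was at -0.45 over the mean of the groups, -0.35 with vehicle and -0.50 with tofacitinib, and Clock at -0.31 with ruxolitinib. Between day-5 groups this mean turned Nr1d2 (0.095, tofacitinib against vehicle), Per2 (0.065) and Tef (-0.003, both tofacitinib against ruxolitinib), and called 110, 12 and 5 genes for ruxolitinib against vehicle, tofacitinib against vehicle and tofacitinib against ruxolitinib, in place of 63, 20 and 3. The correlation with Dbp became -0.88 for Clock, 0.786 for Per3 and -0.736 for Npas2, which then passed, and -0.003 for Tef.

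Single other probe sets turned Tef (1438033_at: -0.93 over the mean, -0.84 with vehicle, -1.02 with tofacitinib and -0.076 for tofacitinib against ruxolitinib) and Clock with ruxolitinib (1418660_at: -1.002; 1435775_at: -0.68). Between day-5 groups they turned Clock (-0.25 with 1435775_at for ruxolitinib against vehicle, 0.046 with 1418660_at for tofacitinib against vehicle), Per2 (0.16 against vehicle and 0.30 against ruxolitinib), Nr1d2 (0.26 and 0.16), Per3 (0.097 and 0.20, both against vehicle) and Dbp (0.16, against ruxolitinib), all for tofacitinib. Quantile normalization put Tef at -0.0075 over the mean and -0.027 with tofacitinib, and Nr1d1 for tofacitinib against vehicle at -0.017. With the 7 day-0 arrays of paired mice, Tef was at -0.028 and -0.041 and Per1 with vehicle at -0.022.

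At a threshold of 0.01, 3 clock genes passed with vehicle and 3 with ruxolitinib, and the genes called were 4105, 2335 and 3897 for vehicle, ruxolitinib and tofacitinib and 6, 2 and 1 between day-5 groups. With only the groups compared, 3, 0 and 0 genes were called between day-5 groups. For tofacitinib against vehicle, no filter and a filter at 6 each called 11.

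Leaving out 1 array at a time, the clock genes called ranged from 3 to 5 with vehicle and 3 to 6 with ruxolitinib, and all genes called from 3470 to 6487, 1999 to 4470 and 3969 to 6344 with vehicle, ruxolitinib and tofacitinib. Between day-5 groups they ranged from 1 to 259, 0 to 126 and 1 to 9. Against day 0 the ranges that crossed 0 were Tef (-0.035 to 0.051 over the mean, -0.11 to 0.015 with ruxolitinib, -0.048 to 0.041 with tofacitinib) and, with vehicle, Clock (-0.28 to 0.0026), Per1 (-0.39 to 0.67) and Per3 (-0.13 to 0.049). For ruxolitinib against vehicle they were Per3 (-0.099 to 0.083), Nr1d1 (-0.61 to 0.027) and Dbp (-0.35 to 0.099). For tofacitinib against vehicle they were Clock (-0.19 to 0.087), Cry2 (-0.26 to 0.080), Nr1d1 (-0.30 to 0.44) and Nr1d2 (-0.13 to 0.011), and against ruxolitinib Dbp (-0.30 to 0.039). Without mouse 1 the correlation with Dbp was -0.074 for Per1, -0.09 for Cry2, 0.611 for Nr1d1 and -0.526 for Arntl. Without the 2 arrays farthest from the median it was 0.51 for Nr1d1, 0.741 for Tef and -0.517 for Arntl.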
